A study of Mus musculus with 20 samples.

Results

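Inhibitory receptors of leukocytes and the phosphatase they recruit were followed in mouse lung. The 4 genes, Lilrb3, Lilrb4, Lair1 and Ptpn6, were taken by probe name from the 547 endogenous genes of the NanoString nCounter mouse Immunology panel, which counts RNA molecules with barcoded probes and without amplification. The RNA came from the left lungs of 20 male C57BL/6J mice, which were 5–8 weeks old when they were obtained. They had then eaten a control diet without docosahexaenoic acid (DHA, a long-chain omega-3 fat) or a DHA-rich diet for 4 weeks. A single intranasal dose of 50 µL followed, either saline or 12.5% HDE, which is extracted from the dust of hog confinement barns, and the mice were killed 5 h later. The groups were control-saline (4 mice), control-HDE (6 mice), DHA-saline (3 mice) and DHA-HDE (7 mice). Both diets shared the AIN-93G base and high-oleic safflower oil, and the DHA-rich diet had in addition an oil that was 39.2% DHA, which supplied about 1.4% of calories. The lungs had been lavaged before they were collected, so that cells washed out of the airways were not in the RNA.

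Myeloid cells carry paired receptors that either start or restrain signalling. Activating receptors work through adaptors with an immunoreceptor tyrosine-based activation motif (ITAM), which recruit the kinase SYK. Inhibitory receptors carry immunoreceptor tyrosine-based inhibition motifs (ITIMs) in their own tails, and once these are phosphorylated they bind the tyrosine phosphatase SHP-1, which removes phosphate from the proteins of the activating pathway. Lilrb3 is the panel's name for the gene that RefSeq lists as Pirb, which encodes PIR-B, an inhibitory receptor of B cells and myeloid cells that binds MHC class I. Lilrb4, in RefSeq Lilrb4a, encodes gp49B, an inhibitory receptor of mast cells, neutrophils and macrophages. Lair1 encodes an inhibitory receptor for collagens that many leukocytes carry. Ptpn6 encodes SHP-1, which is found mainly in blood-forming and immune cells. PIR-B and gp49B each have close relatives in the mouse genome (the activating PIR-A receptors and gp49A). The specificity of the probes was not stated in the sources, so the counts under Lilrb3 and Lilrb4 may include related transcripts.

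RefSeq places Lilrb3 and Lair1 on chromosome 7, Ptpn6 on chromosome 6 and Lilrb4 on chromosome 10. Promoter windows of 300 bases, 250 before and 50 after the RefSeq start site (GRCm38.p6), were matched for 3 of the 4 genes. They are shown because Lilrb3 and Ptpn6 rose against the housekeeping genes and Lair1 was not called. All 3 are on the minus strand and are printed 5′ to 3′ along the gene, with capitals for GAGGAA on either strand, the purine-rich core bound by the myeloid factor PU.1.
Lilrb3 (Pirb), chr7:3720333-3720632: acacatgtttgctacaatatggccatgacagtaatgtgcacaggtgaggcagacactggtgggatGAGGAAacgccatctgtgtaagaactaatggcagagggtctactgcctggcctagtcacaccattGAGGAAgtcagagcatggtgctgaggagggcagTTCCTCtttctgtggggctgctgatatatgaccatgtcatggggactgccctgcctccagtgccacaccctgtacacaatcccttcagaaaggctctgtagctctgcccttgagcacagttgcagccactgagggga
Lair1, chr7:4063155-4063454: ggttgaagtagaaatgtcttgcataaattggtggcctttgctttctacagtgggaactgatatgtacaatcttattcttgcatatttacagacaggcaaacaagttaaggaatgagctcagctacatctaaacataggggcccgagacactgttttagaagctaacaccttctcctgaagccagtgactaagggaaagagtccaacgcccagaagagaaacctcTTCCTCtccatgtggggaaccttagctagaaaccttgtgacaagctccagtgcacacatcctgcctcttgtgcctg
Ptpn6, chr6:124738660-124738959: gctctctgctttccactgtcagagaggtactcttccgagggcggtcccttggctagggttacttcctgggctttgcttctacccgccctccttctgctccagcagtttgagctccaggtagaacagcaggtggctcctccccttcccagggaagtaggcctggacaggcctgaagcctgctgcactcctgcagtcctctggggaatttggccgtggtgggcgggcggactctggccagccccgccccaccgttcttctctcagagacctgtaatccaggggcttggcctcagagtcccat
The Lilrb3 window held 3 matches, the Lair1 window 1 and the Ptpn6 window 0, and no matches overlapped. Of 32851 mouse promoter windows of this length, 28.3% held at least 1. A match describes the letters only, and binding was not measured.

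The endogenous probes of a mouse gave 123536 to 684074 raw counts in all. Each lane was scaled by the geometric mean of the housekeeping genes Oaz1, Ppia, Rpl19 and Eef1g, and values given below as scaled counts are on that scale. The lanes belonged to 2 runs of 10 mice, named by the sample labels, and run 1 held 2, 2, 2 and 4 mice of the groups in the order above and run 2 held 2, 4, 1 and 3. A pair of mice of the control-HDE group, replicates 3 and 6, stood furthest apart. Replicate 6 had a summed scaled count of 5 neutrophil markers of 796.3, below all 7 saline mice (1343 to 4762), while the other 12 HDE mice lay between 5228 and 60180. Replicate 3 had summed thymocyte markers of 10940 and summed T cell markers of 11640, against at most 1129 for either list in the 7 saline mice. To a lesser extent replicate 2 was also above all saline mice on both lists (1282 and 2365). Replicate 4 was above them on the thymocyte list (771.5, against at most 493.5). Results are therefore also given without replicates 3 and 6 together, and those fits still hold replicates 2 and 4.

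Against the housekeeping genes Lilrb4 was higher after HDE, Lilrb3 rose less, and Ptpn6 rose least and was not called under the other 2 kinds of scaling described below. Lair1 was not called in any comparison.

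Lilrb4 had scaled counts of 249.5, 302.1, 291.2 and 280.4 in the control-saline group and of 236.6, 234.1 and 277.3 in the DHA-saline group. In the control-HDE group it was counted at 1551.8, 558.6, 689.7, 1007.2, 1497.4 and 244.8. In the DHA-HDE group the median of the 7 mice was 1081.1, with a lowest value of 425.0 and a highest of 2243.2. All 7 saline mice lay within a narrow band, and 12 of 13 HDE mice were above every one of them. The exception was control-HDE replicate 6. Of the 358 genes tested, 20.7% had at least 12 of 13 HDE mice above every saline mouse. The means were 267.3 ± 27.1 (SD, n = 7) after saline and 1087.1 ± 608.7 (SD, n = 13) after HDE, coefficients of variation of 10.1% and 56.0%.

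Lilrb3 had scaled counts of 169.8, 169.7, 139.7 and 109.4 in the control-saline group and of 179.0, 151.9 and 104.2 in the DHA-saline group. After HDE the control diet mice had 410.4, 282.0, 248.5, 257.6, 295.7 and 88.0. The 7 DHA diet mice with HDE had a median of 430.7 and ran from 251.2 to 682.7. Again 12 of 13 HDE mice exceeded every saline mouse, and control-HDE replicate 6 was below all 7. As given for Lilrb4, 20.7% of the 358 tested genes had at least 12 of 13 HDE mice above every saline mouse. The means were 146.3 ± 29.9 (SD, n = 7) after saline and 351.4 ± 147.2 (SD, n = 13) after HDE. Among saline mice the 3 of run 2 (139.7, 109.4 and 104.2) were below the 4 of run 1.

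Ptpn6 had scaled counts of 344.2, 314.5, 297.5 and 258.0 in the control-saline group and of 350.6, 281.3 and 288.4 in the DHA-saline group. The control diet mice with HDE had 442.1, 375.1, 618.7, 431.0, 449.5 and 242.5. The DHA diet mice with HDE had a median of 459.9, a lowest value of 348.1 and a highest of 643.0. Here 11 of 13 HDE mice were above every saline mouse, which 28.8% of tested genes also reached, and the exceptions were control-HDE replicate 6 and DHA-HDE replicate 2. Its highest value on the control diet, 618.7, was that of replicate 3, the mouse with the most thymocyte and T cell transcripts. The means were 304.9 ± 33.7 (SD, n = 7) after saline and 467.5 ± 123.6 (SD, n = 13) after HDE.

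Lair1 had 13 to 131 raw counts per lane. Its mean scaled count of 50.4 was under 82, the study's count threshold, which was applied here to the mean over mice. It exceeded the mean plus 2 SD of the negative control probes of its own lane in 16 of 20 mice. Scaled counts were 55.6, 53.8, 65.9 and 53.2 in the control-saline group and 49.0, 57.5 and 52.1 in the DHA-saline group. After HDE they were 40.0, 71.8, 57.0, 34.0, 52.3 and 33.8 on the control diet, and on the DHA diet they had a median of 54.0 between 20.8 and 62.1. The exposures overlapped: 1 of 13 HDE mice was above every saline mouse and 6 were below every one.

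**Figure D1:**
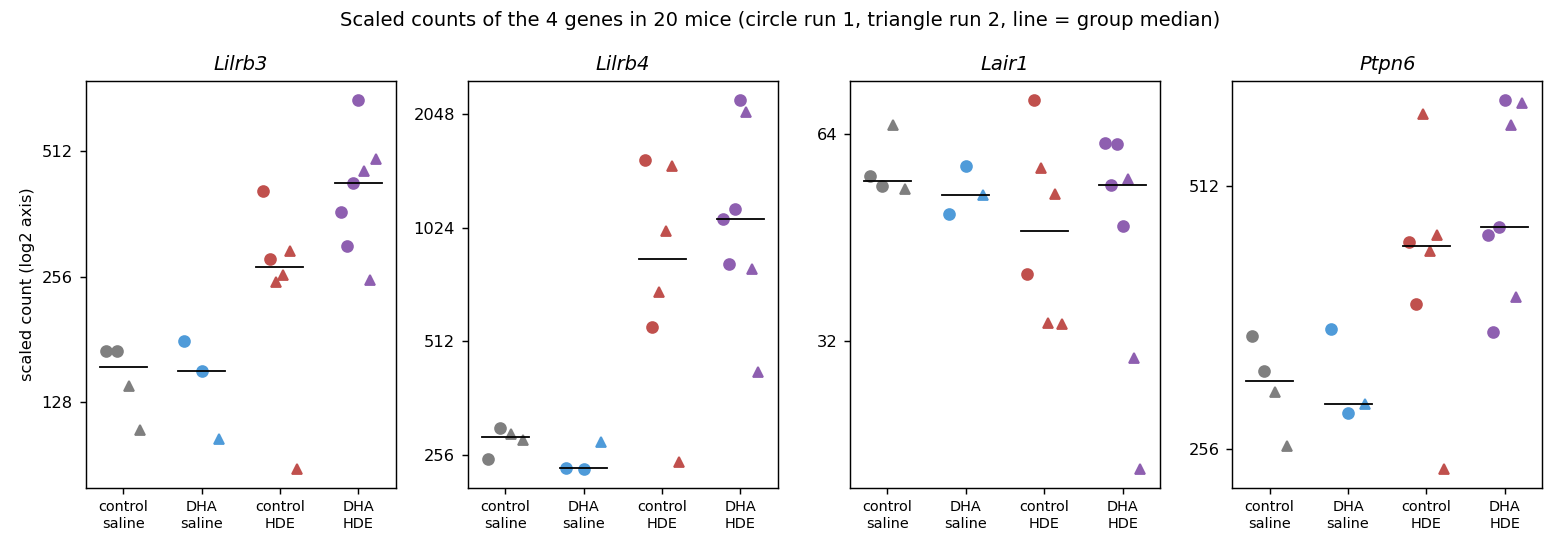
Scaled counts of Lilrb3, Lilrb4, Lair1 and Ptpn6 in each of the 20 mice, on log2 axes, by diet and exposure; circles are mice of run 1, triangles mice of run 2, and lines group medians. For Lilrb3 and Lilrb4, 12 of 13 HDE mice lie above all saline mice, for Ptpn6 11 of 13, and for Lair1 1 of 13. Of the 358 tested genes, 20.7% reached at least 12 and 28.8% at least 11.

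The first comparison asked what HDE changed in the lung, over both diets. Lilrb4 rose 3.94-fold (95% interval 2.37 to 6.56), Lilrb3 2.24-fold (1.52 to 3.29) and Ptpn6 1.51-fold (1.16 to 1.97). In a model of diet and exposure over the 20 mice, edgeR's quasi-likelihood test with Benjamini-Hochberg adjustment over 358 genes gave log2 fold changes of 1.98 (SE 0.35, adjusted p = 1.47e-04), 1.16 (SE 0.27, adjusted p = 0.00138) and 0.59 (SE 0.18, adjusted p = 0.0115). All 3 members that were tested were called higher, in a response in which 42.5% of tested genes were called higher and 5.03% lower and the median log2 fold change was 0.47. Ptpn6 at 0.59 was thus 0.12 above that median, Lilrb3 0.69 and Lilrb4 1.51. Lair1 was tested only when the minimum was lowered to 20, which admitted 495 genes (31.7% called higher). It then had a log2 fold change of -0.22 (SE 0.23, 95% interval -0.70 to 0.26, edgeR adjusted p = 0.542).

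Without control-HDE replicates 3 and 6 the log2 fold changes were 1.32 for Lilrb3, 2.17 for Lilrb4 and 0.60 for Ptpn6, all still called, as were 48.3% of genes in the higher direction. They were 1.25, 2.25 and 0.46 in run 1 alone, and 1.19, 1.73 and 0.74 in run 2 alone. In run 1 alone edgeR's adjusted p was 0.0019, 3.71e-04 and 0.11, and 37.5% of genes were called higher. In run 2 alone, where a single mouse made up the DHA-saline group, none was called (adjusted p = 0.1, 0.0913 and 0.144), against 11.7% of genes called higher. With run as a block the log2 fold changes were 1.22, 1.99 and 0.59 (edgeR adjusted p = 5.35e-04, 1.67e-04 and 0.0113). The share of all genes called in that fit is not given.

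**Figure D2:**
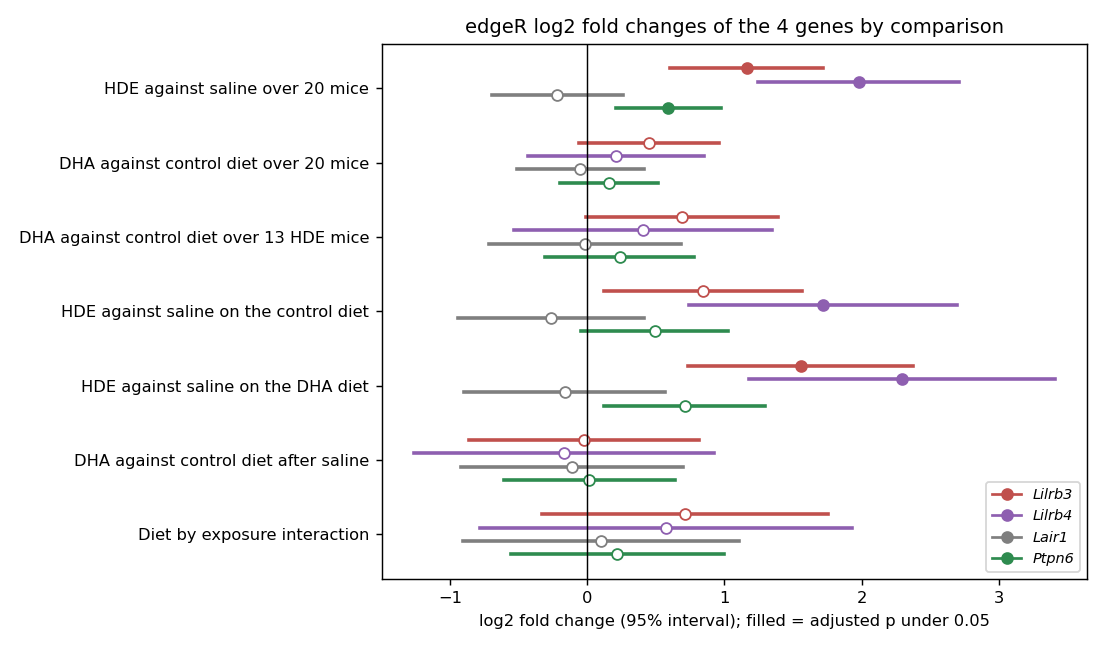
Log2 fold changes from edgeR with 95% intervals for the 4 genes in the 7 comparisons; filled points have an adjusted p under 0.05, and Lair1 was fitted with the lower minimum of 20. Against the housekeeping genes Lilrb4 (1.98), Lilrb3 (1.16) and Ptpn6 (0.59, not called with TMM) were higher after HDE over the 20 mice, and no diet or interaction value passed the test.

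How far each gene rose depended on what it was scaled to. TMM scaling, which centres the bulk of the panel, shifted the median log2 fold change of all genes from 0.47 to -0.03, and called 29.6% of genes higher and 26.3% lower. Under it Lilrb4 stayed 1.36 higher (edgeR adjusted p = 4.3e-04) and Lilrb3 0.63 higher (adjusted p = 0.00619), while Ptpn6 was at 0.09 (SE 0.16, 95% interval -0.24 to 0.41, adjusted p = 0.646). With all 14 housekeeping probes as the reference the values were 1.85, 1.08 and 0.51, and the median of all genes was 0.38. Their edgeR adjusted p was 2.36e-04, 7.13e-04 and 0.0251, and the share of all genes called is not given. A further scaling, chosen after the data were seen, used the genes of the pan-leukocyte list as the reference. These were Ptprc (CD45), Itgb2, Itgal and Itgam, which encode surface proteins of leukocytes, not each of them on every kind. Against the housekeeping genes they had themselves risen unequally, from 0.38 (Itgb2, not called) to 1.42 (Itgam, called, with a saline mean of 52.2). This scaling moved the median of all genes to -0.32 and called 19.6% higher and 35.2% lower. Relative to these 4 reference genes Lilrb4 was 2.14-fold higher (log2 1.10, adjusted p = 0.00187), Lilrb3 was not called (log2 0.35, adjusted p = 0.0709) and Ptpn6 was at -0.19 (95% interval -0.50 to 0.13, adjusted p = 0.296). In whole lung, more cells of a type and more RNA per cell cannot be told apart.

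**Figure D3:**
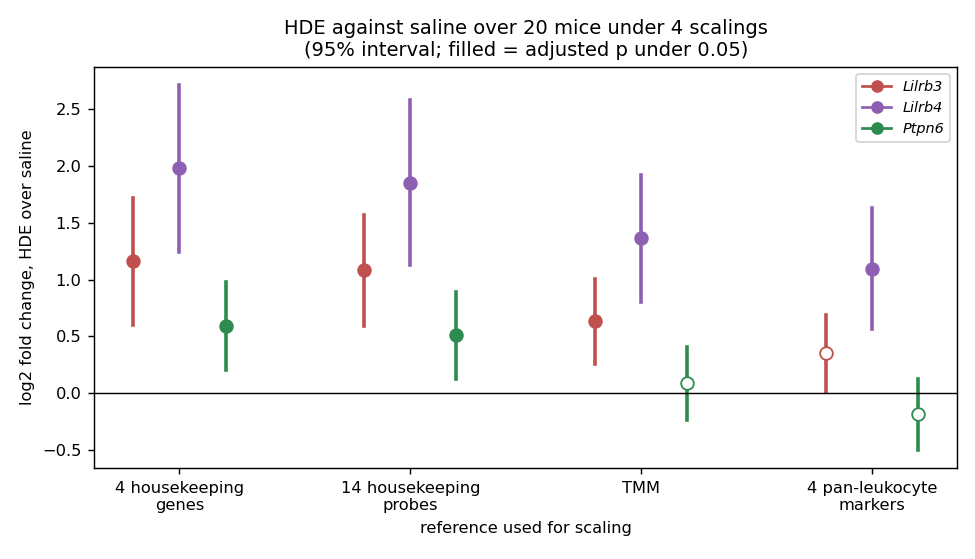
Log2 fold change, HDE over saline in 20 mice, of Lilrb3, Lilrb4 and Ptpn6 under 4 references for scaling, with 95% intervals; filled points have an edgeR adjusted p under 0.05. Lilrb4 is filled under all 4 (1.98, 1.85, 1.36 and 1.10), Lilrb3 under 3, and Ptpn6 under the housekeeping references only.

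Ratios between 2 genes of the same lane do not depend on the scaling, so they were used to ask whether the 4 genes changed unequally. The log2 ratio of Lilrb4 to Ptpn6 went from -0.19 ± 0.25 (SD, n = 7) after saline to 1.03 ± 0.77 (SD, n = 13) after HDE, a difference within diets of 1.21. A two-sided exact permutation test of exposure within diets over 25200 arrangements gave p = 0.00198, or 0.00397 adjusted over the 6 pairs. Lilrb3 to Ptpn6 differed by 0.55 (exact p = 0.00611, adjusted 0.00733). Lilrb4 to Lilrb3 differed by 0.67 (exact p = 0.0222, adjusted 0.0222), from 0.89 ± 0.40 after saline to 1.53 ± 0.63 after HDE. On average both receptor transcripts thus gained on that of the phosphatase, and Lilrb4 gained on Lilrb3. The last of these did not pass without DHA-saline replicate 1 (exact permutation, adjusted 0.0508) or with background subtracted (adjusted 0.0697). Single HDE mice did not follow. Lilrb3 to Ptpn6 was -1.32 and -1.46 in control-HDE replicates 3 and 6, against -1.47 to -0.89 after saline. Lilrb4 to Ptpn6 was 0.01 in control-HDE replicate 6 and -0.58 in DHA-HDE replicate 7, against -0.57 to 0.12 after saline. By log2 fold change against the housekeeping genes, Ptpn6 ranked 165th of 358 genes and Lilrb3 94th.

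Of the 6 pairs, Lilrb4 to Lair1 and Lilrb3 to Lair1 had the widest differences. The ratio to Lair1 differed by 2.04 for Lilrb4 (exact p = 4e-05, the smallest that the arrangements can give, adjusted 2.38e-04). It differed by 1.38 for Lilrb3 (exact p = 3.17e-04, adjusted 9.52e-04) and by 0.83 for Ptpn6 (exact p = 0.00405, adjusted 0.00607). With background subtracted, which leaves Lair1 few counts, none of these 3 passed. DHA-HDE replicate 7 departed from the pattern. Its log2 ratio of Lilrb4 to Lilrb3 was -0.21, below the lowest saline mouse at 0.40. Its Lilrb4 (425.0) was the lowest and its Lilrb3 (491.8) the second highest of the 7 mice. Its neutrophil marker sum, 10390, was the median of its group.

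**Figure D4:**
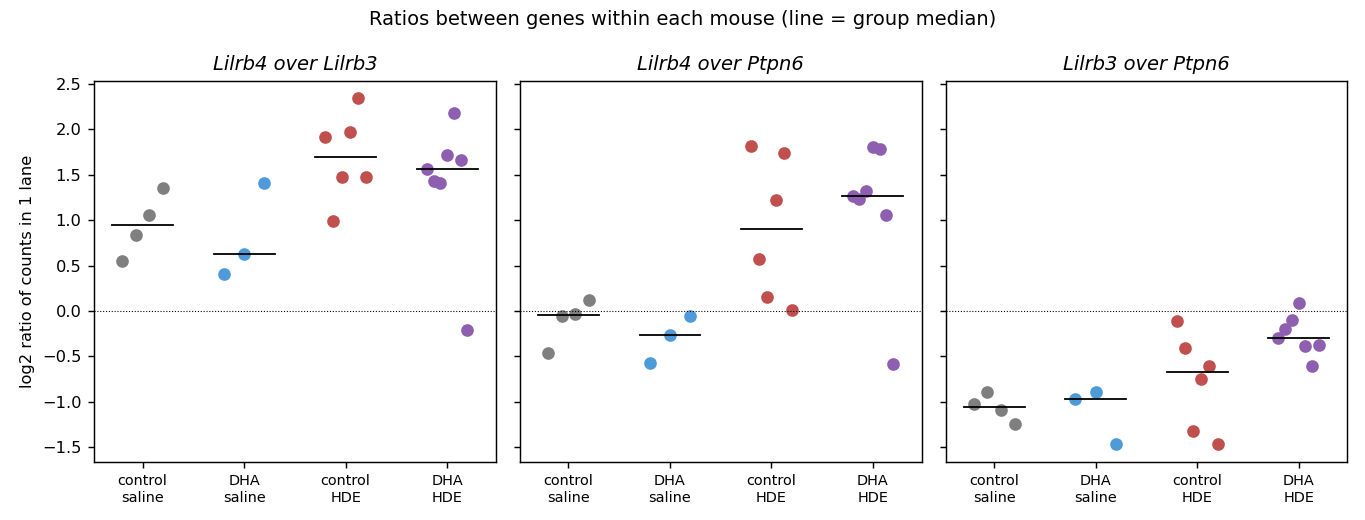
Log2 ratios of Lilrb4 to Lilrb3, Lilrb4 to Ptpn6 and Lilrb3 to Ptpn6 in each mouse by diet and exposure; points are mice and lines group medians. All 3 ratios were on average higher after HDE, by 0.67, 1.21 and 0.55, though not in every mouse.

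The diets were then taken one at a time. On the control diet Lilrb4 was 3.29-fold higher after HDE (log2 1.72, SE 0.47, edgeR adjusted p = 0.0137), where 25.1% of tested genes were called higher. Lilrb3 had a log2 fold change of 0.84 (SE 0.35, adjusted p = 0.0749) and Ptpn6 of 0.49 (SE 0.26, adjusted p = 0.156). On the DHA diet Lilrb4 was 4.91-fold higher (log2 2.29, SE 0.54, adjusted p = 0.00399) and Lilrb3 2.94-fold higher (log2 1.56, SE 0.39, adjusted p = 0.00619), where 30.4% were called higher. Ptpn6 had 0.71 (SE 0.28, adjusted p = 0.0569). On the control diet all 3 genes were called without HDE replicate 6, a fit that called 143 genes higher against 90 with all mice. Lilrb3 was also called there with run as a block (0.90, edgeR adjusted p = 0.04) and without HDE replicates 3 and 6 (1.09, adjusted p = 0.00803). The share of all genes called in these last fits is not given. On the DHA diet Ptpn6 was called when control-HDE replicates 3 and 6 were left out of the fit (0.71, adjusted p = 0.0276). On the DHA diet Lilrb3 was not called without replicate 3 of the saline mice (adjusted p = 0.0554). The count of all genes called higher also moved with single mice, from 90 to between 33 (without control-saline replicate 4) and 143 (without control-HDE replicate 6) on the control diet, and from 109 to between 46 (without DHA-saline replicate 3) and 127 on the DHA diet.

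Calls made on one diet and not on the other do not show that the diets differed. The interaction, which tests this, had log2 values of 0.71 for Lilrb3 (95% interval -0.33 to 1.76), 0.57 for Lilrb4 (-0.78 to 1.93) and 0.22 for Ptpn6 (-0.55 to 0.99), each with an edgeR adjusted p of 0.997. The share of the 358 genes called was 0.0%. At this number of mice an HDE effect up to 3.38-fold larger on the DHA diet, or somewhat smaller, could not be told from equal effects for Lilrb3.

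The study's second question was what the DHA-rich diet changed. After saline the diets overlapped for every member, with log2 differences (DHA over control) of -0.02 for Lilrb3, -0.17 for Lilrb4 and 0.02 for Ptpn6 (edgeR adjusted p = 0.994 for each, 0.0% of genes called). Over the 20 mice they were 0.45 (SE 0.25), 0.21 (SE 0.31) and 0.16 (SE 0.17), with an adjusted p of 0.924 and 0.0% of genes called. Lair1 had -0.05 (SE 0.22).

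Over the 13 HDE mice alone Lilrb3 was the member with the widest difference, 1.62-fold higher on the DHA diet (log2 0.69, 95% interval -0.01 to 1.39). It was not called (edgeR unadjusted p = 0.0523, adjusted p = 0.981 over 363 genes), nor was any other gene (0.0%). At an unadjusted p of at most 0.05, 1.1% of genes were higher, and Lilrb3 was not among them. With TMM scaling its log2 difference was 0.57 (95% interval 0.11 to 1.02), again not called (edgeR adjusted p = 0.411). For Lilrb3, 4 of the 7 DHA diet mice exceeded every control diet mouse, and 6 exceeded the control diet median. The share of all genes that did the same was not counted, so these counts alone show no diet effect. Without replicates 3 and 6 of the control diet the log2 difference was 0.45. It was 0.35 in run 1 alone and 0.85 in run 2 alone. Lilrb4 had 0.40 (95% interval -0.54 to 1.35), Ptpn6 0.24 (-0.31 to 0.78) and Lair1 -0.01 (-0.71 to 0.68).

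Within the HDE mice the 4 genes did not all go together. Over 13 mice Lilrb3 and Ptpn6 had a Pearson r of 0.80 (permutation p = 0.00154, adjusted over 12 pairs 0.0185) and a Spearman rho of 0.66 (permutation p = 0.0172, adjusted 0.137). Lilrb3 and Lilrb4 had an r of 0.72 (permutation p = 0.00606, adjusted 0.0364) and a rho of 0.60 (permutation p = 0.0315, adjusted 0.137). Without the 2 mice farthest from the Lilrb3 median, control-HDE replicate 6 and DHA-HDE replicate 4, r was 0.47 for the first pair and 0.23 for the second. Without control-HDE replicates 3 and 6 r was 0.85 for the first pair (permutation, adjusted 0.00576) and 0.42 for the second (permutation, adjusted 0.634). Within runs, by removal of the run mean, r was 0.91 and 0.69. Lilrb4 and Ptpn6 had an r of 0.54 (permutation p = 0.0565, adjusted 0.17), and Lair1 with the others had 0.01 to 0.38. Over the 7 saline mice Lilrb3 and Ptpn6 had an r of 0.80 (exact permutation p = 0.0349, adjusted 0.14), and no other pair passed before adjustment. All values share the housekeeping scaling of their lane. Under TMM scaling the first pair had an r of 0.38 (permutation p = 0.203) and the second also 0.38 (permutation p = 0.199).

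**Figure D5:**
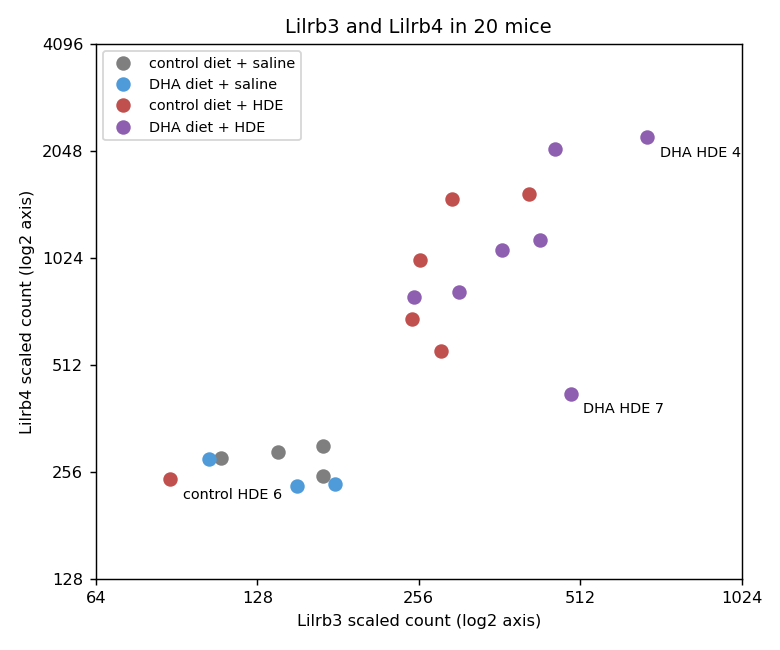
Scaled counts of Lilrb3 against Lilrb4 in the 20 mice, both on log2 axes, coloured by diet and exposure. The HDE mice lie above and to the right of the saline mice except control-HDE replicate 6, and DHA-HDE replicate 7 has the lowest Lilrb4 of its group with a high Lilrb3.

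The genes whose levels followed each member most closely over the 13 HDE mice differed from member to member, as a description and with no test. For Lilrb3 they were Relb (a subunit of NF-κB, rho 0.95), Tmem173 (STING, a sensor of cyclic dinucleotides, 0.93), Cd14 (a co-receptor for bacterial lipopolysaccharide, 0.91), Plaur (the urokinase receptor, 0.91) and Nfkbiz (a nuclear regulator of NF-κB targets, 0.91). For Lilrb4 they were Clec4e (Mincle, an ITAM-linked C-type lectin, 0.96), Il1rn (the interleukin-1 receptor antagonist, 0.91), Hif1a (an oxygen-sensitive transcription factor, 0.91), Cxcr2 (the neutrophil chemokine receptor, 0.90) and Fas (a death receptor, 0.90). For Ptpn6 they included Ptprc (the leukocyte phosphatase CD45, 0.89), Il2rb (a chain of the interleukin-2 receptor, 0.88), Tagap (a GTPase-activating protein, 0.87) and Itga4 (an integrin chain, 0.82). For Lair1 they were H2-Ob, Nfatc3, Lcp2, Irak1 and Fadd, from 0.84 to 0.73. No gene was among the nearest 5 of more than 1 member. Among 362 genes Lilrb4 ranked 83rd for Lilrb3, and Ptpn6 ranked 60th. For Lilrb4, Ptpn6 ranked 199th, with a rho of 0.43. The median rho of all genes ranked was 0.43 for Lilrb3, 0.47 for Lilrb4, 0.41 for Ptpn6 and 0.27 for Lair1. Without control-HDE replicate 6 the first neighbours had rho values of 0.93, 0.94, 0.86 and 0.80.

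Other genes of the same signalling were taken from fixed lists. Of 16 other inhibitory receptors on the panel 6 were tested, and 1 rose after HDE, Fcgr2b, the inhibitory Fc receptor for IgG, by 1.31 (SE 0.31, edgeR adjusted p = 0.00155), where 42.5% of all tested genes were called higher. Cd244 (0.36), Pecam1 (-0.21) and Ceacam1 (0.16) were not called, and the median of the 6 was 0.09 against 0.47 over all genes. Of 3 further phosphatases Ptpn2, which acts on JAK and STAT proteins, rose by 1.30 (SE 0.27) and Ptprc by 1.06 (SE 0.27). Ptpn22, a phosphatase of lymphocyte receptor signalling, had 0.47 (adjusted p = 0.235).

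On the activating side, 3 of 7 ITAM adaptors and kinases were called higher and 0 lower, a share near the 42.5% of all tested genes, with a median of 0.94 against 0.47 over all genes. Fcer1g, the common Fc receptor gamma chain, rose by 1.21 (SE 0.30), Syk by 1.20 (SE 0.31) and Tyrobp, the adaptor DAP12, by 0.94 (SE 0.26). Lck had 1.50 (SE 0.70, adjusted p = 0.0844) with a mean of 390.3 ± 851.8 scaled counts (SD, n = 13) after HDE. Of 6 ITAM-linked receptors 3 were called higher, 1 lower and 2 not at all, against 42.5% higher and 5.03% lower over all tested genes. Clec4e rose by 3.84, Trem1, an amplifier of myeloid activation, by 2.52 and Clec5a, a DAP12-linked lectin, by 1.49. Their saline means of 44.6, 38.2 and 39.8 scaled counts were under the minimum of 82, which these 3 genes met only through the HDE mice. Lilra5, an activating relative of the Lilrb genes, fell by 0.68 (SE 0.21, adjusted p = 0.0116), from 136.9 ± 32.8 (SD, n = 7) to 85.3 ± 25.9 (SD, n = 13) scaled counts. Of 5 genes for ligands of the receptors only H2-K1, an MHC class I heavy chain, was called higher, by 0.86 (SE 0.25, adjusted p = 0.00685). B2m, its light chain, had 0.18, Fn1 (fibronectin) 0.38 and C1qb (a complement chain) 0.28. With TMM scaling Tyrobp (0.36, adjusted p = 0.0615) and Ptprc (0.49, adjusted p = 0.058) were not called, and B2m was called lower (-0.39, adjusted p = 0.0317). With the pan-leukocyte reference Clec4e (2.91), Trem1 (1.60) and Clec5a (0.60) were called higher and Lilra5 (-1.35) lower, as before, while Fcgr2b (0.44, adjusted p = 0.13), Fcer1g (0.38, adjusted p = 0.106), Syk (0.35, adjusted p = 0.168), Tyrobp (0.12, adjusted p = 0.586), Ptprc (itself in the reference, 0.19, adjusted p = 0.381), Ptpn2 (0.47, adjusted p = 0.0891) and H2-K1 (0.08, adjusted p = 0.747) were not called. In the diet comparison over the 13 HDE mice none of these lists had a gene called.

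All 4 tested neutrophil markers were called higher after HDE, with a median log2 fold change of 2.59, and the sum of the 5 on the panel ran from 1343 to 4762 in the saline mice and from 796.3 to 60180 in the HDE mice. Macrophage and monocyte markers summed to 1587 to 2302 after saline and 1302 to 13600 after HDE, and 3 of 8 were called higher, namely Cd14 (3.95), Msr1 (1.73) and Marco (1.50), against 42.5% of all tested genes. The median of the 8 was 0.23, below the 0.47 over all genes, and Cd14 had a mean of 310.5 scaled counts after saline and 4976 after HDE. The 5 not called were Itgax (0.27), Csf1r (0.19), Ccr2 (0.09), Cx3cr1 (0.00) and Emr1 (-0.17). Pan-leukocyte markers summed to 1070 to 1647 after saline and 901.2 to 3713 after HDE. Of these 2 of 4 were called higher, Itgam (1.42) and Ptprc (1.06), near the 42.5% of all tested genes. The saline means of Msr1 (33.4), Itgam (52.2) and the neutrophil marker Cxcr2 (53.2) were under the minimum of 82, which they met only through the HDE mice. No marker of these lists was at 0 in every mouse. Of the 4 tested B cell markers 2 were lower, Cd79b (-0.50) and Ms4a1 (-0.50), where 5.03% of all tested genes were called lower. That share was 26.3% with TMM scaling and 35.2% with the pan-leukocyte reference. Against the housekeeping genes 0 of 6 T cell, 0 of 5 thymocyte and 0 of 1 NK cell markers were called. The control diet's HDE group held replicate 3, with its thymocyte and T cell sums of 10940 and 11640. On that diet alone 4 of 6 T cell and 3 of 5 thymocyte markers were called higher, with medians of 2.39 and 2.42. Of all tested genes 25.1% were called higher there. The called thymocyte markers Rag1, Ccr9 and Ccl25 had means of 22.2, 29.4 and 51.5 scaled counts over all saline mice. Of the called T cell markers, Cd4 and Cd3d had saline means of 48.6 and 69.2. All these means were under the minimum of 82, which the genes met only through the HDE mice. The part of these cell types in the rise of Lilrb3, Lilrb4 and Ptpn6 was not tested. The scaling to pan-leukocyte genes given above cannot tell these cell types apart.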

How the data were processed

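Left lung RNA of 20 mice was measured on the nCounter mouse Immunology panel. The deposited raw counts are the nSolver export, and the negative probes are still in them. The authors also deposited normalized values, read here as a signal, that equal 1.18 times the scaled counts used here. Of the columns, 0 were left unused. The lungs came from 3 experimental sets, which the labels do not tie to mice. None of 190 lane pairs agreed to within counting noise (lowest chi-square 7.7 per degree of freedom).

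After scaling by 4 housekeeping genes, a gene entered a comparison if its mean there reached 82. The test was the quasi-likelihood test of edgeR 4.0.16 (R 4.3.3), with Benjamini-Hochberg adjustment and a threshold of 0.05. The HDE effect on each diet, the diet effect after saline and the interaction came from 1 model of the 4 groups, and the diet effect over the 13 HDE mice from a model of those mice. Ratios and correlations used log2 scaled counts and permutation. Alternatives were other scalings, DESeq2 1.42.0, limma 3.58.1, an ordinary linear model, background subtraction (mean plus 2 SD of 8 negative probes, floor 1), other minimums, run as a block, each run alone and each mouse left out. The scripts were tested on simulated counts.

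The members and lists were chosen with earlier results of these data known. Named genes are the members, up to 4 genes per list by p for HDE and the 5 genes most alike each member, of which 1 is not reported here. Replicate numbers follow the order of deposit and only name a mouse.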

Additional observations from a re-analysis of the deposited data

How the results depend on the processing

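For HDE against saline over the 20 mice, 3 members were called, and leaving out each mouse in turn gave 3 to 3. Members called fell to 1 under pan-leukocyte scaling (chosen after the data were seen) and to 0 in run 2 alone. Ptpn6 reversed to -0.186 under pan-leukocyte scaling, was 0.085 with TMM and 0.095 with DESeq2's own size factors. On the control diet 1 member was called, and 1 to 3 with each mouse left out. The count was 3 without control-HDE replicate 6, where 143 genes were called higher against 90 with all mice. It was 2 with background subtracted, with run as a block and without replicates 3 and 6 together, and 0 with the ordinary linear model (Lilrb4, adjusted p = 0.0701) and in run 2 alone. On the DHA diet 2 were called, 1 to 3 with each mouse left out and 0 in run 2 alone. No diet or interaction comparison called a member under any alternative tried. The causes were not tested.

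Over the 20 mice the 152 genes higher became 87 with 82 counts required in every mouse, 70 under pan-leukocyte scaling and 40 in run 2 alone. The 18 lower became 94 with TMM, 94 with DESeq2's own size factors, 126 under pan-leukocyte scaling, 10 in run 1 alone and 0 in run 2 alone. On the control diet the 90 higher became 38 with 82 in every mouse, 41 with limma, 28 with the linear model, 54 in run 1 and 0 in run 2, and the 3 lower became 24 with DESeq2's own size factors, 14 with TMM, 1 with the linear model, 6 with the run block and 0 in run 2. On the DHA diet the 109 higher became 69 with 82 in every mouse and 0 in run 2, and the 6 lower became 62 with DESeq2's own size factors, 64 with TMM, 12 with all housekeeping probes, 3 in run 1 and 0 in run 2. Diet over the 13 HDE mice had 3 genes lower with DESeq2 on housekeeping factors, and diet over the 20 mice 1 lower with background subtracted.

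With background subtracted the ratio differences were 0.58 for Lilrb4 to Lilrb3 (adjusted p = 0.0697), 1.67 for Lilrb4 to Lair1 (adjusted p = 0.0697), 1.09 for Lilrb3 to Lair1 (adjusted p = 0.293) and 0.36 for Ptpn6 to Lair1 (adjusted p = 0.686). With each mouse left out Lilrb4 to Lilrb3 ran from 0.60 to 0.80 and failed without DHA-saline replicate 1 (adjusted p = 0.0508). Of the correlations after HDE, Lilrb3 with Lilrb4 was no longer called with TMM (0.383), with the run mean removed (0.686) or without replicates 3 and 6 (0.415), nor Lilrb3 with Ptpn6 under TMM (0.378). Uncalled values that changed sign after HDE were Lair1 with Ptpn6 (-0.202 with TMM, -0.310 without replicates 3 and 6), Lilrb3 with Lair1 (-0.474 with TMM, -0.122 with the run mean removed, -0.049 without replicates 3 and 6), Lilrb4 with Lair1 (-0.119 with TMM) and Lilrb4 with Ptpn6 (-0.151 with TMM). After saline they were Lair1 with Ptpn6 (0.544 with TMM), Lilrb4 with Ptpn6 (0.689 with TMM, 0.038 with the run mean removed), and, with the run mean removed, Lilrb3 with Lair1 (0.519) and with Lilrb4 (0.253). Diet differences near 0 also changed sign: after saline Lilrb3 (0.000 with DESeq2's own size factors, 0.005 with TMM, -0.205 to 0.173 with each mouse left out) and Ptpn6 (-0.032 with all housekeeping probes, -0.051 with background subtracted, -0.057 in run 1, -0.091 to 0.082 with each mouse left out), Lilrb4 over the 20 mice (-0.017 without replicates 3 and 6), and Lair1 with each mouse left out (-0.099 to 0.124 over the 13, -0.105 to 0.035 over the 20).

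No paired analysis was possible because replicate numbers were given in order of deposit and tie no mouse to another. Lair1 had 13 to 131 raw counts, and in 4 mice did not exceed the negative controls' mean plus 2 SD.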
